A study of Mus musculus with 6 samples.

Results

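Complex III, complex IV and ATP synthase of the mitochondrial inner membrane are built largely from nuclear-encoded subunits, and the transcripts of those subunits were followed here in hematopoietic stem cells (HSCs) with and without the ribosomal protein Rpl22. The genes were chosen by symbol alone, as those that begin with Uqcr or Atp5, those that begin with Cox followed by a digit from 4 to 8, and Cyc1 and Cycs, with pseudogenes marked -ps left out. This gave 46 genes of the 34573 in the count table, of which 9 encode complex III, 18 carry a complex IV symbol, 18 carry an ATP synthase symbol and 1, Cycs, encodes cytochrome c. Of the 46, 40 had enough reads for a test. RNA came from lineage-negative Kit+Sca1+ CD48-CD150+ cells sorted from the bone marrow of young adult mice on the C57BL/6 background. There were 3 libraries from Rpl22-/- mice and 3 from their Rpl22+/+ counterparts. The Rpl22 allele was lost in every cell of the Rpl22-/- animals rather than in HSCs alone, and the labels name no other allele or treatment for either group. The labels do not say whether replicates were separate animals, so p-values measure the spread between these samples, which may be technical.

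Complex III (ubiquinol-cytochrome c reductase) passes electrons from ubiquinol to cytochrome c, the small soluble carrier that hands them on to complex IV (cytochrome c oxidase), where oxygen is reduced to water. Both complexes pump protons, and ATP synthase uses the returning flow to turn a ring of c subunits, which drives ATP formation in the F1 head. The catalytic centres of complexes III and IV lie partly in subunits encoded by mitochondrial DNA, while the small nuclear-encoded subunits surround them, and quiescent HSCs are known to rely comparatively little on this pathway.

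Between 9321123 and 13385850 reads per library fell on genes. The targeted gene followed the labels, with Rpl22 at 35.0, 43.9 and 41.5 CPM (counts scaled to a common library size) in the Rpl22-/- libraries and 529, 562 and 523 CPM in the Rpl22+/+ libraries. Values of 3 libraries are given in the order of replicates 1, 2 and 3 throughout. Across all 14004 genes tested, 780 passed an adjusted p of 0.05 in edgeR's quasi-likelihood F-test after Benjamini-Hochberg correction, and every adjusted p given for a gene is from edgeR unless another tool is named. The median log2 fold change (Rpl22-/- minus Rpl22+/+) over all genes was −0.0068. All 8 HSC markers checked were detected, summing to 2104 to 2302 CPM in Rpl22-/- and 2274 to 2332 CPM in Rpl22+/+ libraries with Fgd5 alone called (lower), and Cd48, which the sort excludes, lay between 4.89 and 7.30 CPM. The summed level of 7 megakaryocyte markers was 1047 to 1293 CPM in Rpl22-/- libraries and 737 to 966 CPM in Rpl22+/+ libraries, with 5 of the 7 called higher and none at 0. For 8 neutrophil markers the sums were 106, 211 and 96.5 CPM in Rpl22-/- and 84.2, 66.1 and 104 CPM in Rpl22+/+ libraries, with 7 of the 8 higher (median log2 fold change 1.53) and Camp alone called. Rpl22-/- replicate 2 stood apart there, with Mpo at 101 CPM beside 1.46 to 20.5 CPM in the other libraries and Elane at 20.2 beside 0.307 to 5.10 CPM. For 8 erythroid markers the sums were 37.8 to 43.4 CPM in Rpl22-/- and 36.9 to 44.9 CPM in Rpl22+/+ libraries. Of the 5 tested, 3 were higher and 2 lower, with Car1 alone called (lower). Car1 overlapped between genotypes, with Rpl22+/+ replicate 3 at 4.68 CPM beside 2.66 to 5.09 CPM in Rpl22-/- libraries. Hbb-b2 and Epor were higher in every Rpl22-/- library without being called (log2 fold changes of 0.78 and 0.24). The B cell markers Ms4a1 and Igll1 and the T cell marker Cd3e were at 0 in all libraries, and the 6 markers of each of those lineages summed to at most 29.5 and 6.22 CPM. The megakaryocyte markers thus moved with genotype. Of the neutrophil markers, Mpo and Elane were highest in Rpl22-/- replicate 2, and Ltf, Camp and Ngp in Rpl22-/- replicate 3. S100a8 and S100a9 were highest in Rpl22+/+ replicate 1, and Prtn3 in Rpl22+/+ replicate 3. The megakaryocyte sums differed by genotype alongside the genes described next, while the neutrophil sums overlapped between genotypes. The part of either marker set in the differences of those genes was not tested.

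By the test 8 of the 40 genes differed, where 5.57% of all genes tested did, and 7 of them were higher and 1, Cox5a, was lower in Rpl22-/- HSCs. The stretches upstream of 4 of them, and of the ATP synthase gene Atp5e, are shown to set Cox5a, the gene called lower, beside genes that rose and beside Atp5e, which was lower without passing the test. They come from RefSeq on GRCm38.p6 (the mm10 assembly) and hold up to 250 bases before the annotated start, without bases that the GENCODE annotation places inside the gene, written 5′ to 3′ along the gene's strand. Capitals mark matches, on either strand, to the motif of nuclear respiratory factor 1 (NRF1), which is GCGCA followed by any base and GCGC, or to CCGGAAG, a core motif of ETS factors such as GABP.
Uqcr11, chr10:80406831-80407071, - strand: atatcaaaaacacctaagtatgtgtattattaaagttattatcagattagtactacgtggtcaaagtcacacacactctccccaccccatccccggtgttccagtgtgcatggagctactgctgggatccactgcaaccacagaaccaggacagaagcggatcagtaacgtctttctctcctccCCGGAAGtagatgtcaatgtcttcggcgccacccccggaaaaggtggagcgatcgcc
Cox6a1, chr5:115348982-115349208, - strand: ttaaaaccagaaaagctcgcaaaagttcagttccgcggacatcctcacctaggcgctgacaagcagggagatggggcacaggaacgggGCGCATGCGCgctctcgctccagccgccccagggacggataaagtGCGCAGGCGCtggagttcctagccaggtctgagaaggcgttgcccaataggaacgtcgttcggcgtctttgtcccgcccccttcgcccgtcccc
Cox8a, chr19:7217617-7217866, - strand: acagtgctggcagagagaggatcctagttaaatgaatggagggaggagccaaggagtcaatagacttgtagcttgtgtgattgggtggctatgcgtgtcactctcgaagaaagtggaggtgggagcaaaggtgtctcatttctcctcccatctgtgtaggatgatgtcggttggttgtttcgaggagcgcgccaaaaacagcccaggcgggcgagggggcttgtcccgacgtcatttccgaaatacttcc
Cox5a, chr9:57520982-57521231, + strand: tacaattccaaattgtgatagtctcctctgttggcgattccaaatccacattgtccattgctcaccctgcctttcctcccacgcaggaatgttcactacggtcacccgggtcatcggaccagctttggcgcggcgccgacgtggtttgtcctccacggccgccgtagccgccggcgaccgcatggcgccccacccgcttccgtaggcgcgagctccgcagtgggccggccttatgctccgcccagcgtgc
Atp5e, chr2:174464106-174464351, - strand: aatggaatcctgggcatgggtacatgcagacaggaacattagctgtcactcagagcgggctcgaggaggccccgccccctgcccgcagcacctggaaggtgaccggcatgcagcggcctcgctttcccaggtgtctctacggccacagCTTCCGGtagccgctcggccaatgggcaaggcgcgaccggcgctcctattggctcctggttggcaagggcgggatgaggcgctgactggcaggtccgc
Matches occurred both in some genes that rose and in Atp5e. The Uqcr11 window held 1 ETS match, 66 bases before the start, the Cox6a1 window held 2 NRF1 matches, 162 and 117 bases before it (an ETS match at 16 bases lies in the stretch left out), and the Atp5e window held 1 ETS match at 102 bases. The Cox8a window, from a gene that rose, and the Cox5a window, from the gene called lower, held neither. The windows of Cox7b, Cox7c and Atp5d, which also rose and are not printed, held neither as well, and Uqcrq had no window. Over the 35 genes of the 46 with a RefSeq window of 250 bases, 4 (11.4%) held an NRF1 match and 7 an ETS match, where 3.86% and 7.11% of all 27025 such windows did. The YY1 motif AAGATGGC was in 0 of the 35 and in 1.57% of all windows. No NRF1 match overlapped an ETS match in the 35 windows, and a match is a description of these letters only.

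More of these genes were higher than lower in Rpl22-/- HSCs, and the genes that passed the test were mostly small subunits of complexes III and IV. Of the 40 genes tested, 25 had a higher and 15 a lower level in Rpl22-/- HSCs, a share of 62.5% higher where all genes tested gave 48.7%, with a median log2 fold change of 0.10. The adjusted p was below 0.05 for 8 of the 40, where 5.57% of all genes passed. The 7 higher stand beside 3.28% of all genes called higher, and the 1 lower beside 2.29% called lower. For 12 genes every library without Rpl22 was higher, and for 3 every one was lower, where 13.3% and 13.6% of all genes did so. When a trend of counts with transcript length was removed library by library, 20 of the 40 were higher and the median was 0.017. In bulk RNA, fewer cells of a type and less RNA per cell cannot be told apart.

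**Figure D1:**
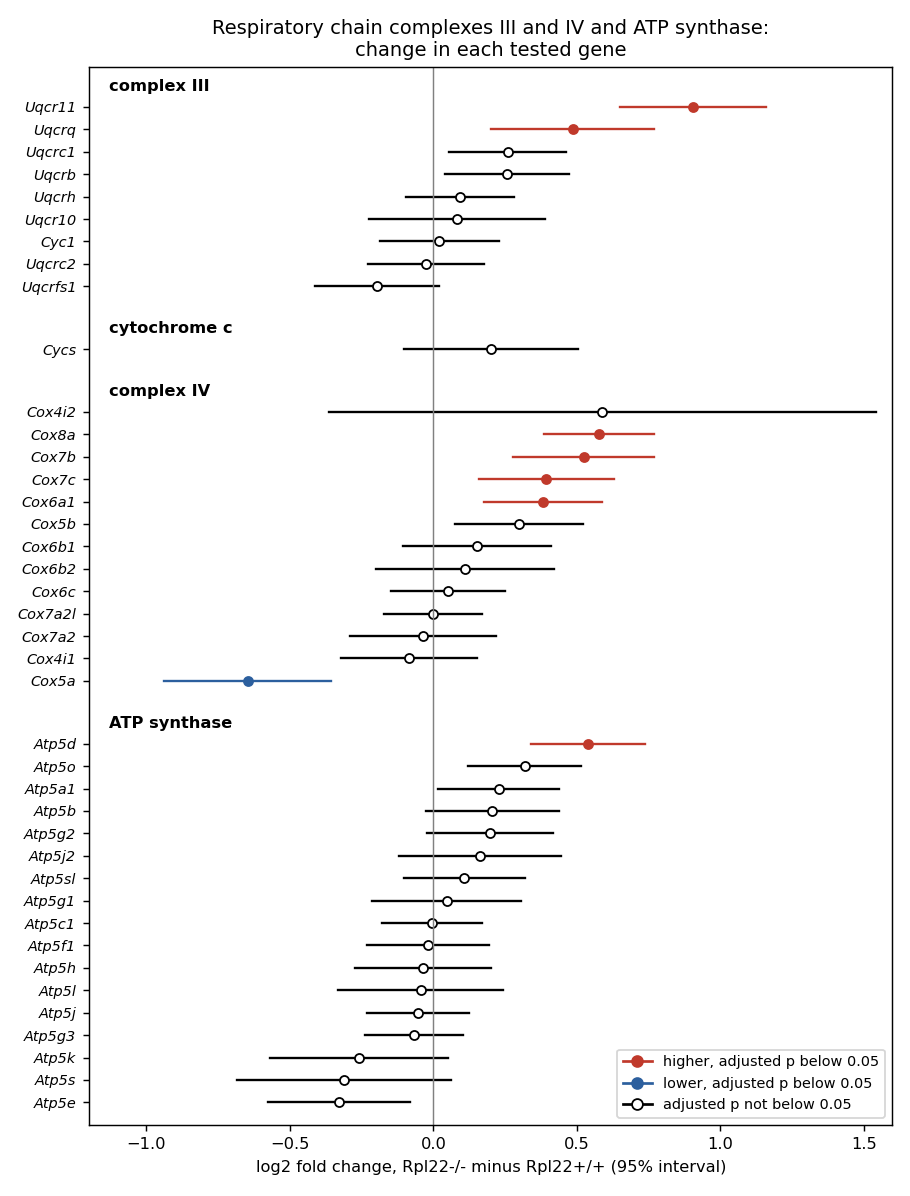
Log2 fold change of each of the 40 genes tested (points) with its 95% interval (lines), grouped by complex, on a horizontal log2 axis where 0 is no difference. Uqcr11 stands furthest to the right of the genes with an adjusted p below 0.05, at 0.91, and Cox5a furthest to the left, at −0.65.

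In complex III, 2 of the 5 small subunits rose, and 0 of the 4 catalytic and core subunits passed (1 at an unadjusted p below 0.05, and 0 with DESeq2 or limma-voom). The 2 calls are 22.2% of its 9 genes, beside 5.57% of all genes tested. Transcripts of the small subunits have 434 to 535 bases, and those of the catalytic and core subunits 1363 to 1896. Over all genes, 11.7% of those up to 700 bases and 5.18% of the longer ones were called. Uqcr11 (ENSMUSG00000020163, chr10:80402997-80406830, reverse strand), a small single-helix subunit at the edge of the complex, measured 51.0, 72.0 and 59.9 CPM in Rpl22-/- HSCs against 33.6, 31.5 and 32.4 CPM in Rpl22+/+ HSCs. The Rpl22+/+ libraries were almost equal, and the lowest Rpl22-/- library was far above them. The log2 fold change was 0.91 (standard error, SE, 0.119, adjusted p = 0.00101), a 1.87-fold difference, and the adjusted p stayed below 0.05 in all 17 other ways of processing the counts. Uqcrq (ENSMUSG00000044894, chr11:53427922-53430831, reverse strand), a small subunit that packs against cytochrome b, measured 42.8, 47.8 and 33.5 CPM in Rpl22-/- HSCs and 30.4, 31.7 and 26.2 CPM in Rpl22+/+ HSCs. The genotypes did not overlap, but the lowest Rpl22-/- library, replicate 3, lay only just above the highest Rpl22+/+ library. Its log2 fold change was 0.49 (SE 0.133, adjusted p = 0.0451). The call was lost without Rpl22-/- replicate 2 (0.37, adjusted p = 0.160) and without Rpl22+/+ replicate 1, 2 or 3 (adjusted p = 0.122, 0.0868 and 0.157). It was also lost with library size alone (0.0618), with limma-voom (0.0593) and with the length trend (0.101), a like trend with GC content (0.0570) or both trends removed, the last with the replicate number as a block (0.0640), so that Uqcrq was called in 8 of 17 other ways of processing.

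The other small subunits of complex III were also higher in their means without passing. Uqcrb, which binds near the ubiquinone site, had 103, 120 and 102 CPM against 93.5, 99.9 and 78.8 CPM, a log2 fold change of 0.26 (adjusted p = 0.147). Uqcrh, the hinge protein that helps cytochrome c1 dock cytochrome c, had a log2 fold change of 0.09 with an interval from −0.10 to 0.28, and Uqcr10 one of 0.08 with an interval from −0.22 to 0.39. The median over the 5 small subunits was 0.26, and over the 4 catalytic and core subunits it was −0.0021. Uqcrc1, a core subunit, measured 147, 188 and 158 CPM in Rpl22-/- HSCs and 136, 143 and 133 CPM in Rpl22+/+ HSCs. Its genotypes did not overlap, and its log2 fold change of 0.26 had an adjusted p of 0.119, which passed only without Rpl22-/- replicate 1 (0.34, adjusted p = 0.0283). Its partner Uqcrc2 was at −0.03 (interval −0.23 to 0.18) and Cyc1, the heme protein cytochrome c1, at 0.02 (interval −0.18 to 0.23). Uqcrfs1, the Rieske iron-sulfur protein that carries electrons to cytochrome c1, went the other way, with 55.3, 48.3 and 43.3 CPM against 56.6, 55.6 and 55.9 CPM. All Rpl22-/- values were below all Rpl22+/+ values, yet the log2 fold change of −0.20 did not pass (adjusted p = 0.272). In all, 7 of the 9 complex III genes were higher, with a median of 0.09. With the trend on transcript length removed, 4 of 9 were higher and the median was −0.02, which turned the majority around. With the length and GC trends both removed and the replicate number as a block, 6 of 9 were higher, with a median of 0.02.

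Cycs, the gene of cytochrome c itself, varied more between replicates than between genotypes. It measured 81.5, 126 and 103 CPM in Rpl22-/- HSCs and 95.7, 102 and 71.5 CPM in Rpl22+/+ HSCs. The ranges overlapped, and the log2 fold change was 0.20 (interval −0.10 to 0.50, adjusted p = 0.436).

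In complex IV 4 subunits were called higher and 1 lower among 13 tested, which is 38.5% beside the 5.57% of all genes. This count fell to 1 without Rpl22-/- replicate 3, Rpl22+/+ replicate 2 or Rpl22+/+ replicate 3, to 2 without Rpl22-/- replicate 2 and to 3 without Rpl22+/+ replicate 1. Calls over all genes fell in the same runs, from 780 to 127, 259, 241, 370 and 206 in that order. Cox8a (ENSMUSG00000035885, chr19:7215153-7217616, reverse strand), the common form of the smallest subunit, measured 149, 175 and 152 CPM in Rpl22-/- HSCs against 114, 105 and 99.7 CPM in Rpl22+/+ HSCs. No values overlapped, and the gap between the genotypes was wider than the range within either one. The log2 fold change was 0.58 (SE 0.0905, adjusted p = 0.00374) and passed in all 17 other ways of processing. Cox7b (ENSMUSG00000031231, chrX:106015700-106022450, forward strand), a small membrane subunit, measured 111, 149 and 116 CPM in Rpl22-/- HSCs and 95.3, 89.9 and 75.8 CPM in Rpl22+/+ HSCs. Its log2 fold change was 0.52 (SE 0.115, adjusted p = 0.0184), and the libraries were separated by genotype. The call was lost without Rpl22-/- replicate 2 or 3 (adjusted p = 0.0566 and 0.0594) and without Rpl22+/+ replicate 2 or 3 (0.0552 and 0.0877). Cox7c (ENSMUSG00000017778, chr13:86044816-86046904, reverse strand), another single-helix subunit, had 87.2, 114 and 88.7 CPM against 80.3, 74.2 and 65.9 CPM. It rose by 0.39 on the log2 scale (SE 0.111, adjusted p = 0.0495), and only Rpl22-/- replicate 2 stood well clear of the Rpl22+/+ libraries. Leaving out any single library other than Rpl22-/- replicate 1 took the adjusted p of Cox7c above 0.05, to between 0.0868, without Rpl22+/+ replicate 1, and 0.180, without Rpl22+/+ replicate 3. The call of Cox7c was lost as well with library size alone (0.0621), with limma-voom (0.0586) and with the length trend (0.133) or both trends removed (0.0780), which left it called in 8 of 17. Cox6a1 (ENSMUSG00000041697, chr5:115345642-115348981, reverse strand), the common form of subunit 6A, had 78.7, 95.8 and 76.3 CPM against 64.3, 65.2 and 62.9 CPM. Its genotypes lay apart, with a log2 fold change of 0.38 (SE 0.0971, adjusted p = 0.0332). The same 5 omissions ended its call too, with adjusted p-values from 0.0637, without Rpl22-/- replicate 3, to 0.122, without Rpl22+/+ replicate 1. Removing the length trend, the GC trend or both also ended the call of Cox6a1 (0.0999, 0.103 and 0.197), which left it called in 9 of 17.

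Cox5a was the 1 gene of the 40 that passed the test as lower, among 15 with a lower level. Cox5a (ENSMUSG00000000088, chr9:57521274-57532426, forward strand) encodes a subunit on the matrix face of complex IV that sits beside subunit 4 and is known as the place where a thyroid hormone metabolite binds. Reads on Cox5a numbered 617, 606 and 426 without Rpl22 and 793, 888 and 700 with it. As levels these were 48.1, 50.4 and 32.4 CPM against 60.9, 71.3 and 72.8 CPM. The genotypes did not overlap, and Rpl22-/- replicate 3 was the lowest library of all. The log2 fold change was −0.65 (SE 0.137, adjusted p = 0.0154), a level 0.638 times that of Rpl22+/+ HSCs. It was negative in all 17 other ways of processing, from −0.76 to −0.47, and was called in 14. The call was lost without Rpl22-/- replicate 3 (−0.47, adjusted p = 0.0628), without Rpl22+/+ replicate 2 (−0.62, adjusted p = 0.0601) and without Rpl22+/+ replicate 3 (−0.60, adjusted p = 0.0639). No other transcript in the annotation was at least 95% identical to Cox5a over 200 bases, and the same held for Uqcr11, Uqcrq, Cox8a, Cox6a1, Atp5d and Atp5e. The span of Cox5a does share 1140 bases with Gm26631, a noncoding gene on the opposite strand that has no row in the count table. The strand setting of the counting is not given in the sources used here, so reads from that stretch cannot be told apart. The near copies of Cox7b and Cox7c in the count table, Gm13771 and Gm10012, had at most 3 reads in any library. Cox5b, a distinct subunit that binds zinc on the matrix face, pointed upward, with 122, 124 and 97.1 CPM against 102, 93.2 and 83.8 CPM. Its log2 fold change was 0.30 (adjusted p = 0.104), with 1 Rpl22-/- library inside the Rpl22+/+ range.

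**Figure D2:**
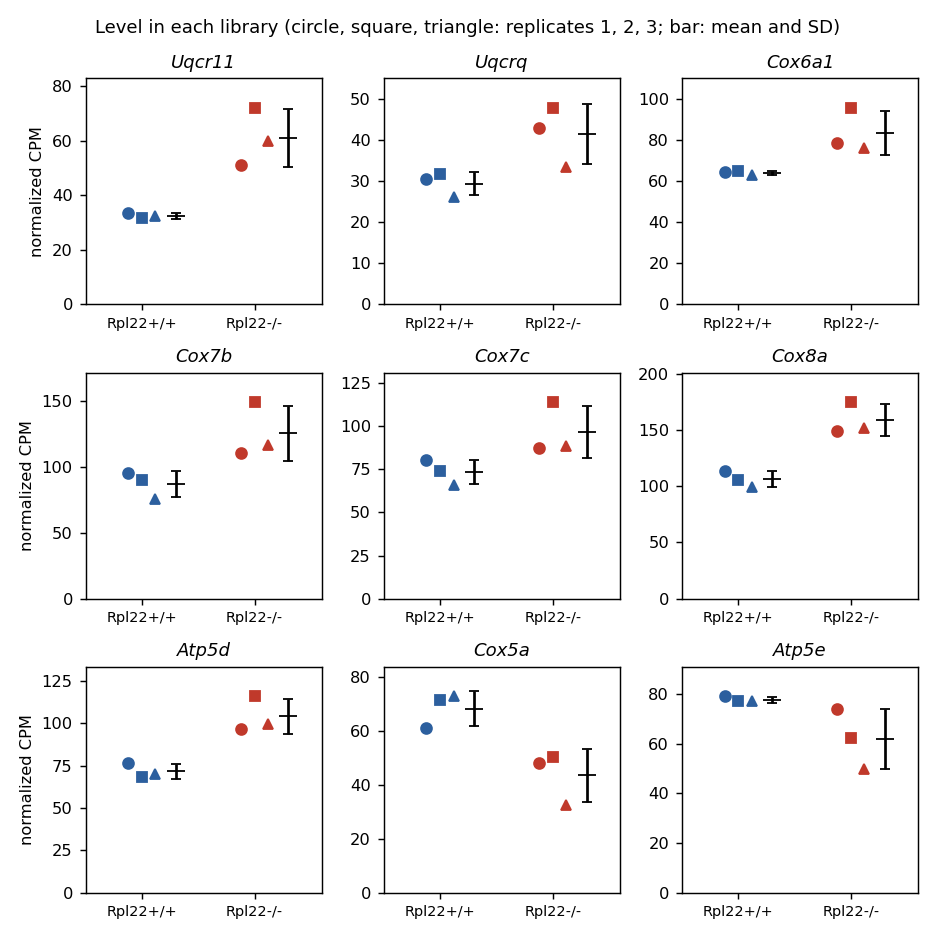
Normalized CPM (vertical axes, each from 0) of the 8 genes with an adjusted p below 0.05 and of Atp5e in the 3 Rpl22+/+ (blue) and 3 Rpl22-/- (red) libraries, where symbols mark replicates and black bars the mean and SD. Uqcr11 averaged 61.0 CPM in Rpl22-/- and 32.5 CPM in Rpl22+/+ HSCs, and Cox5a averaged 43.6 and 68.3 CPM.

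Several complex IV subunits exist in tissue-specific forms, and the table showed which of them these HSCs transcribed. Subunit 4 came almost wholly from Cox4i1, at 191 CPM per kb of transcript in Rpl22+/+ HSCs, while the form Cox4i2, known from lung and from low oxygen, was at 1.44 CPM per kb. Cox4i1 did not pass the test (−0.09, interval −0.32 to 0.15), and for Cox4i2, with 7 to 30 reads per library, the interval of −0.36 to 1.54 was too wide to show a difference at this depth. The heart and muscle forms Cox6a2, Cox7a1 and Cox8b had at most 3, 12 and 0 reads in any library, beside means of 112 CPM per kb for Cox6a1 and 193 for Cox8a, and libraries between 89.5 and 99.5 for Cox7a2, in Rpl22+/+ HSCs. Cox7b2 and Cox8c, known from testis, also had 0 reads in all 6 libraries. The form of subunit 6B known from testis, Cox6b2, was present in every library at 20.5 to 29.4 CPM, and its level in Rpl22+/+ HSCs was 50.9 CPM per kb beside 193 CPM per kb for the common form Cox6b1. Neither form of subunit 6B passed the test (log2 fold changes of 0.11 and 0.15, adjusted p = 0.708 and 0.493). Cox7a2l, known from other work as a factor in supercomplexes of complexes III and IV, had the change nearest to 0. It measured 215, 201 and 203 CPM against 202, 205 and 215 CPM (−0.0021, interval −0.17 to 0.17). Cox6c and Cox7a2 lay at 0.05 (interval −0.15 to 0.25) and −0.04 (interval −0.29 to 0.22). Over the 13 complex IV genes tested, 9 were higher and the median was 0.15. With the trend on transcript length removed, 7 of 13 were higher and the median was 0.04.

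Within ATP synthase 1 gene of 17 tested passed, which is 5.88%, near the 5.57% of all genes, and 8 were higher while 9 were lower, their median being −0.0047. In the F1 head, where ATP is made, the genes did not move together. The catalytic subunit Atp5b measured 797, 1038 and 807 CPM against 769, 803 and 719 CPM (0.21, adjusted p = 0.281), and its partner in the ring of the head, Atp5a1, measured 761, 957 and 830 CPM against 729, 744 and 704 CPM (0.23, adjusted p = 0.189). Both were highest in Rpl22-/- replicate 2, and only Atp5a1 was without overlap between the genotypes. Atp5a1 was called without Rpl22-/- replicate 1 (0.31, adjusted p = 0.0436). The rotor of the head is formed by the gamma, delta and epsilon subunits, encoded by Atp5c1, Atp5d and Atp5e. Atp5d (ENSMUSG00000003072, chr10:80138632-80145818, forward strand) measured 96.6, 116 and 99.8 CPM in Rpl22-/- HSCs and 76.8, 68.1 and 69.9 CPM in Rpl22+/+ HSCs. No values overlapped, and the log2 fold change was 0.54 (SE 0.0937, adjusted p = 0.00596), called in all 17 other ways of processing. Its span shares 2204 bases with Cbarp (Dos in the count table) on the opposite strand, which had 303 to 426 reads in Rpl22-/- and 277 to 346 in Rpl22+/+ libraries. As for Cox5a, reads from the shared stretch cannot be told apart, and the same limit holds for Atp5a1, Atp5f1, Atp5j, Atp5l, Cox4i1, Cox6c, Uqcrb, Uqcrc2 and Uqcrh, whose spans also share bases with a gene on the opposite strand. Atp5e, the smallest rotor subunit, lay in the opposite direction at −0.33 (SE 0.116, adjusted p = 0.105) and passed in 4 of 17 other ways of processing, among them without Rpl22-/- replicate 1 (−0.47, adjusted p = 0.00880). Its Rpl22+/+ libraries were almost equal, at 79.0, 77.1 and 77.0 CPM, while the Rpl22-/- libraries spread from 49.7 to 73.9 CPM. Atp5c1 lay between them at −0.0047 (interval −0.18 to 0.17).

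Outside the head, the stalk, the membrane ring and the accessory subunits of ATP synthase gave 0 calls by edgeR, with 1 gene, Atp5o, at an unadjusted p below 0.05 and called by DESeq2, and 0 called by limma-voom. Atp5o, the subunit that ties the stalk to the top of the head, measured 133, 160 and 137 CPM in Rpl22-/- HSCs and 123, 116 and 107 CPM in Rpl22+/+ HSCs. The genotypes did not overlap and the log2 fold change was 0.32 (SE 0.0928, adjusted p = 0.0567). It passed in 5 of 17 other ways of processing, among them DESeq2 (adjusted p = 0.0318) and the omission of Rpl22-/- replicate 1 (adjusted p = 0.0188). The Atp5o transcript shares 287 identical bases with a transcript of Donson, which had 475 to 679 reads in Rpl22-/- and 550 to 733 in Rpl22+/+ libraries, and it overlaps the antisense gene D430001F17Rik, with 379, 527 and 669 reads against 294, 337 and 219. The other stalk genes Atp5f1, Atp5h and Atp5j lay at −0.02, −0.04 and −0.05. The c subunit of the ring is made from 3 genes that yield the same mature protein. In Rpl22+/+ HSCs Atp5g3, Atp5g2 and Atp5g1 averaged 154.6, 80.9 and 80.7 CPM. Divided by their median transcript lengths of 718, 586 and 2675 bases, these were 215, 138 and 30.1 CPM per kb. The gap between Atp5g2 and Atp5g1 thus rests on the annotated length, and which of them is more abundant cannot be told. The log2 fold changes of Atp5g3, Atp5g2 and Atp5g1 were −0.07, 0.20 and 0.05, with intervals that all included 0. For Atp5g2, an annotated pseudogene, Gm10231, is 100% identical over 441 bases and carried 303 to 385 reads in Rpl22-/- and 240 to 346 in Rpl22+/+ libraries, so the value of Atp5g2 is uncertain. The membrane subunits e, f and g, from Atp5k, Atp5j2 and Atp5l, which shape the dimers of the enzyme, lay at −0.26, 0.16 and −0.04 (adjusted p = 0.313, 0.510 and 0.887). Atp5l2, a near copy of Atp5l that the annotation calls a pseudogene, had 5 reads over all libraries and was not tested. Atp5s and Atp5sl match by symbol but do not encode subunits of the enzyme. Atp5sl was at 0.11 (adjusted p = 0.563). Atp5s was at −0.31 (adjusted p = 0.312), with 23.8, 14.1 and 14.7 CPM against 21.0, 21.8 and 22.7 CPM, and was called only without Rpl22-/- replicate 1, its highest library (−0.59, adjusted p = 0.0138).

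Much of the variation in these genes ran along single libraries. Among the 3 Rpl22-/- libraries, replicate 2 had the highest level for 28 of the 40 genes (70.0%) and replicate 3 for 0, whereas over all genes tested these libraries were the highest for 34.8% and 30.1%. Rpl22-/- replicate 3 was the lowest of its genotype for 25 of the 40 (62.5%, where all genes gave 29.6%), and Rpl22+/+ replicate 3, the library with the fewest reads, was the lowest of its genotype for 28 (70.0%, where all genes gave 37.0%). Summed over complex III, the level was 844, 968 and 796 CPM in Rpl22-/- HSCs against 804.5, 808 and 732 CPM in Rpl22+/+ HSCs. For complex IV the sums were 1273, 1369 and 1114 CPM against 1139, 1132 and 1075 CPM. For ATP synthase they were 3188, 3664 and 3029.5 CPM against 3053.5, 3118 and 2869.9 CPM. In all 3 complexes Rpl22-/- replicate 3 fell inside the Rpl22+/+ range, while Rpl22-/- replicates 1 and 2 lay above it. The means of Rpl22-/- HSCs exceeded those of Rpl22+/+ HSCs by 11.3%, 12.2% and 9.29%, where the sum over all genes tested differed by 3.14%. Without Rpl22-/- replicate 3, 34 of 41 genes were higher, with a median of 0.21. In that run 4 of the 41 were called, where 127 of all 14244 genes tested were. Without Rpl22-/- replicate 2, the library with the highest Mpo and Elane levels, 23 of 40 were higher, with a median of 0.03. The calls of Uqcr11, Cox8a, Atp5d and Cox5a then held, where 370 of all 14293 genes tested were called. Without Rpl22-/- replicate 1, 25 of 41 were higher, with a median of 0.09. In that run 13 were called, where 1720 of all 14243 genes tested were.

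**Figure D3:**
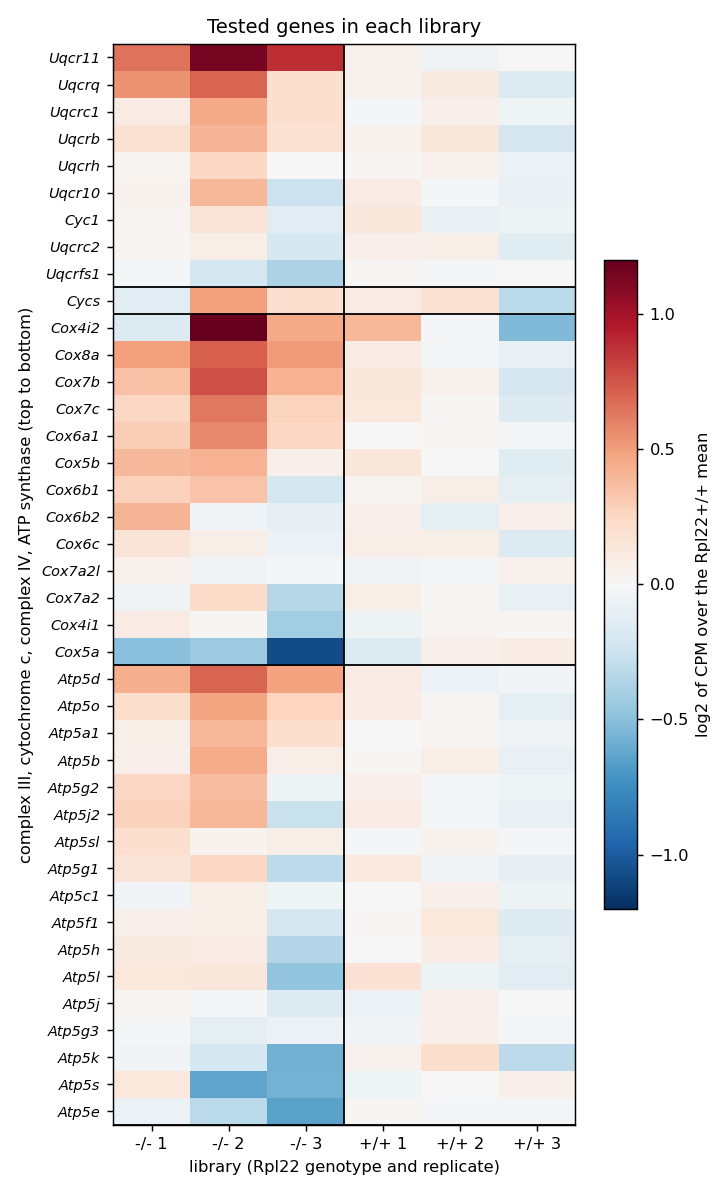
Level of each tested gene (vertical axis) in each library (horizontal axis), as the log2 of its CPM over the mean of the 3 Rpl22+/+ libraries, red above and blue below that mean, with black lines between complexes. Rpl22-/- replicate 2 is the reddest column, being the highest of its genotype for 28 of 40 genes, and Rpl22-/- replicate 3 is the highest for 0.

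Short transcripts made up much of the list, and this went along with the calls. Many of the subunits are small proteins, and 18 of the 40 genes tested have transcripts of up to 700 bases, of which 6 were called (33.3%), with 2 of the 22 longer ones (9.09%). Over all genes with a known length, 90 of 767 (11.7%) of those up to 700 bases and 652 of 12588 (5.18%) of the longer ones were called. The median log2 fold change of the short genes was 0.10 in the list and 0.11 over all genes, and that of the longer genes was 0.08 in the list and −0.01 over all genes. Across the 40 genes the log2 fold change had a Pearson correlation of −0.0719 with log2 length and of 0.311 with GC content. These are descriptions over genes that share the same 6 libraries. What part of the differences goes with length was not tested further than by removing the trend, after which the calls of Uqcr11, Cox8a, Atp5d, Cox7b and Cox5a held. Those of Uqcrq, Cox6a1 and Cox7c were then lost (adjusted p = 0.101, 0.0999 and 0.133), and Atp5e was called lower (−0.44, adjusted p = 0.0313).

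**Figure D4:**
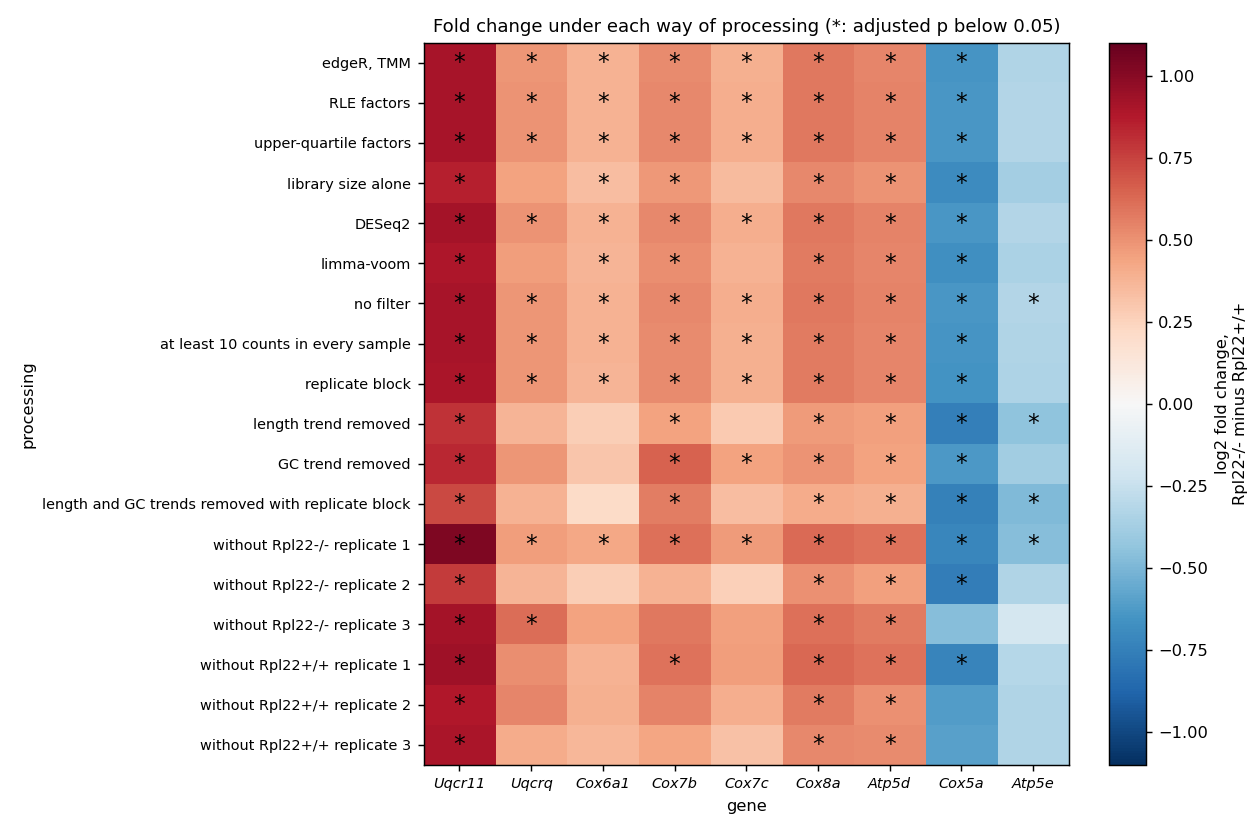
Log2 fold change (colour, red higher and blue lower in Rpl22-/- HSCs) of the 8 called genes and Atp5e under edgeR with TMM scaling and 17 other ways of processing (vertical axis), where asterisks mark an adjusted p below 0.05. The direction of each of the 9 genes is the same in all, and Uqcr11, Cox8a and Atp5d carry an asterisk in all.

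Among other genes of the same pathway, those of complex I were mostly higher. Of 36 nuclear genes for complex I, which feeds electrons into the chain from NADH, 30 were higher and 6 were lower. Of the 30, 8 were called, which is 22.2% of the 36 beside 5.57% of all genes, and the median log2 fold change of the list was 0.25. Ndufa3 and Ndufa7, small accessory subunits, had the smallest p-values there (log2 fold changes of 0.85 and 0.59, adjusted p = 0.00125 and 0.00514). Among the 4 complex II genes 0 were called by edgeR, DESeq2 or limma-voom and 1, Sdhb, had an unadjusted p below 0.05 (0.30, adjusted p = 0.122), followed by Sdhd (−0.05, adjusted p = 0.796). The mitochondrially encoded subunits of complexes III, IV and ATP synthase, 6 in number, had 1 call in each direction. mt-Cytb, the cytochrome b around which the complex III subunits assemble, measured 4110.3, 5337 and 5081 CPM in Rpl22-/- HSCs and 3736, 3543 and 3124 CPM in Rpl22+/+ HSCs, without overlap (0.48, adjusted p = 0.0296, called in 12 of 17 other ways of processing). mt-Atp8, a membrane subunit of ATP synthase, measured 18.7, 25.9 and 29.7 CPM against 50.5, 44.1 and 45.8 CPM (−0.92, adjusted p = 0.00347, called in 16 of 17). Its reading frame overlaps that of mt-Atp6, so reads on the shared bases cannot be told apart. Per kb, mt-Atp8 was at 121.4 CPM in Rpl22-/- and 229.5 CPM in Rpl22+/+ HSCs, far below mt-Atp6 at 4193 and 4466 CPM. The log2 fold change of mt-Atp6 was −0.09 (adjusted p = 0.691). The mt-Atp8 row, for a gene of 204 bases, may thus hold only part of its reads. Whether the level of the mt-Atp8 transcript differed cannot be told from it. The catalytic subunit gene mt-Co1 was at 0.15 (adjusted p = 0.466), and mt-Co2, mt-Co3 and mt-Atp6 were not called either.

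Genes that build or control these complexes had 1 call in the list for complex IV assembly and 1 among further ATP synthase proteins. The first is a share of 3.85% beside the 5.57% of all genes. Among 6 assembly factors of complex III 0 passed in edgeR, DESeq2 or limma-voom, with 1 at an unadjusted p below 0.05, 2900010M23Rik (0.40, adjusted p = 0.0757), and Lyrm7 next (0.52, adjusted p = 0.280). Among 26 genes listed for assembly of complex IV, 15 were higher and 11 lower. Ndufa4, counted there, is known as a subunit of the complex rather than an assembly factor (0.10, adjusted p = 0.627). Coa3, which helps the first catalytic subunit mature, was called higher (0.48, adjusted p = 0.0492), followed by Fam36a at −0.24 (adjusted p = 0.122). Of 6 further ATP synthase proteins, Atpif1, the inhibitor that blocks the enzyme from running in reverse, rose from 165 to 204 CPM (0.30, adjusted p = 0.0436), and the assembly factor Atpaf2 was at 0.17 (adjusted p = 0.408). Coa3 and Atpif1 were each called in 8 of the 17 other ways of processing. Of 13 regulators of respiratory genes 0 passed in edgeR, DESeq2 or limma-voom, and 0 had an unadjusted p below 0.05. Tfam, which packages mitochondrial DNA and activates its transcription, was at −0.17 (adjusted p = 0.235). Nrf1, which binds the NRF1 motif, was at 0.17 (adjusted p = 0.330).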

How the data were processed

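RNA from sorted Rpl22-/- and Rpl22+/+ HSCs was sequenced in 3 libraries per genotype, prepared with a polyA+ kit. Reads were aligned to mm10 with TopHat2 2.1.1, and the authors deposited raw whole-number read counts per gene from HTSeq. How the counting used strand, and on which annotation, is not given in the sources used here. HTSeq's 5 lines of totals not assigned to a gene, 58.6% to 60.9% of each library's counts, were kept out. No per-sample column went unused.

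Genes were kept by edgeR's filterByExpr (version 4.0.16 under R 4.3.3) at a minimum count of 10, which left 14004, and libraries were scaled by TMM. Genotypes were compared by the quasi-likelihood F-test, and p-values were adjusted by Benjamini and Hochberg's method over all 14004. An SE is the size of the log2 fold change divided by the root of F, and intervals are at 95%. CPM values are TMM-scaled, and precision rests on 3 values per genotype. CPM per kb divides by the median length of a gene's transcripts in GENCODE vM21 (GRCm38), where 29042 symbols matched directly and 1849 through an older symbol, and 3682 did not match. Copies were transcripts at least 95% identical over 200 bases (BLAST 2.17.0). With 3 libraries against 3, an exact two-sided permutation test cannot go below 0.1.

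The genes named are Rpl22, Atp5e, every gene of the list with an adjusted p below 0.05, the smallest p-values and extreme fold changes of each complex, families of alternative forms, genes without enough reads, and the 2 smallest p-values of each pathway list. The other genes of the list and some markers were named after their values were seen. The genes, lists and tests were chosen with earlier results of these data known. Alternatives were other scalings (relative log expression, upper quartile, library size alone), other tests (DESeq2 1.42.0, limma-voom in limma 3.58.1), other filters (none, or at least 10 counts in every sample), a term for replicate number, removal of lowess trends (span 0.3) on length, on GC content or on both with that term, and each library left out in turn. The code was first tested on simulated data. Tables and figures were made in Python 3.11.15 with numpy 2.4.6, pandas 2.3.3 and matplotlib 3.10.9.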

Additional observations from a re-analysis of the deposited data

How the results depend on the processing

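The 8 called genes kept their direction in all 136 values over the 17 other ways of processing and lost the call in 33. Over all genes 1422 passed with no filter, 488 with the GC trend removed and 481 with length and GC trends removed with the replicate block, and between 127, without Rpl22-/- replicate 3, and 1720, without Rpl22-/- replicate 1, with 1 library left out. With library size alone 43.4% of calls were higher, against 58.8% with TMM, and all genes shifted to a median of −0.051. Of the 46 genes, between 3 and 13 passed with 1 library left out. In complex III 1 passed with library size alone, with limma-voom, and with the length trend, the GC trend or both removed, and 1 to 3 with 1 library left out. In complex IV 3 passed with the length trend or both trends removed, and 1 to 5 with 1 library left out. In ATP synthase 2 passed with upper-quartile factors, DESeq2, the replicate block, the length trend removed or both trends removed, 3 with no filter, and 1 to 5 with 1 library left out. The cause of these shifts was not tested.

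The replicate numbers are shared between genotypes in the labels, but same-numbered libraries did not deviate together (correlations of −0.1121, 0.06938 and 0.04888), and not every library correlated best with its own number. The replicate block gave 904 calls over all genes and 9 among the 46, Atp5o being the added one.

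Some small changes among uncalled genes reversed. With the length trend removed Cox6b2 was at −0.0041, Cox6c −0.0541, Cyc1 −0.0273, Uqcr10 −0.0327 and Uqcrh −0.0185. With the GC trend removed Atp5c1 was at 0.0263, Cox7a2l 0.001, Cyc1 −0.0451 and Uqcrc2 0.0485. With both removed and the replicate block Cox6b2 was at −0.0563, Cox6c −0.0227, Cyc1 −0.0765, Uqcr10 −0.0867 and Uqcrc2 0.0178. Cyc1 was at −0.023 with library size alone. Atp5c1 was at 0.0002 with relative log expression factors and 0.0001 with DESeq2, and Cox7a2l at 0.0027 and 0.0029, 0.0022 with upper-quartile factors and 0.0019 with no filter. With 1 library left out the range was −0.0421 to 0.0267 for Atp5c1, −0.0909 to 0.071 for Atp5f1, −0.0646 to 0.2005 for Atp5g1, −0.107 to 0.1009 for Atp5h, −0.1435 to 0.1326 for Atp5l, −0.1838 to 0.0576 for Cox4i1, −0.061 to 0.2073 for Cox6b2, −0.0228 to 0.1107 for Cox6c, −0.1837 to 0.0976 for Cox7a2, −0.0277 to 0.0239 for Cox7a2l, −0.0479 to 0.0947 for Cyc1, −0.1033 to 0.2307 for Uqcr10 and −0.0924 to 0.0531 for Uqcrc2.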

Other observations

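Ratios of reads between pairs of genes within one library, chosen after the levels were seen, set unequal changes side by side without any scaling between libraries. Reads on Cox5a per read on Cox5b were 0.395, 0.406 and 0.333 in Rpl22-/- HSCs against 0.598, 0.765 and 0.870 in Rpl22+/+ HSCs, a mean of 0.378 ± 0.039 (SD, n = 3) beside 0.744 ± 0.137. No library of one genotype reached the range of the other. For the rotor subunits of ATP synthase, reads on Atp5d per read on Atp5e were 1.31, 1.86 and 2.01 against 0.972, 0.883 and 0.908, and for the small complex III subunits, reads on Uqcr11 per read on Uqcr10 were 1.52, 1.67 and 2.19 against 0.963, 0.980 and 1.05. In complex IV, reads on Cox8a per read on Cox4i1 were 0.968, 1.21 and 1.41 against 0.825, 0.717 and 0.680. Each of these ratios was without overlap between the genotypes. The ratios were not tested, since the pairs were picked for their values, and they show unequal change within a library rather than which gene of a pair moved.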
